A study of Mus musculus with 9 samples.

Results

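Vax1 and Vax2 are the pair of mouse ventral anterior homeobox genes, and their levels were followed across 3 regions of the embryonic optic cup. The genes were found by their symbols: a probe set counted if the platform annotation gave it Vax1 or Vax2 as its single symbol. This gave 3 probe sets, 2 for Vax1 and 1 for Vax2, of 34945 probe sets with 1 symbol, and 2 genes of 18193. For Vax1 the probe set that was brighter on average gave the main value, and the other is given beside it.

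The samples were total RNA from optic cups of mouse embryos at stage E11.5, taken by laser-assisted microdissection and hybridised to Affymetrix mouse genome arrays, with 1 array per sample. The 3 optic fissure samples held cup cells up to 5 cell diameters away from the margin of the fissure, the ventral groove of the cup. The 3 nasal samples came from the middle of the nasal cup and the 3 temporal samples from the middle of the temporal cup. No genotype, treatment or strain was named in the labels of any group, and samples were lettered A, B and C within each region. Values are linear probe set intensities, and on every array the mean without the top and bottom 2% was 150. The intensity below which 40% of the probe sets of an array lay was 15.7 to 17.5, and a gene was tested if it was above this level on at least 3 arrays, as 12773 genes were.

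Vax1 and Vax2 encode closely related DNA-binding homeodomain proteins, which act mainly as repressors of transcription. In the vertebrate eye they mark the ventral side: both genes are active in the ventral optic vesicle, after which Vax1 is known chiefly from the optic stalk and the fissure margin and Vax2 from the ventral neural retina. Hedgehog signals from the midline maintain them, BMP signals from the dorsal side oppose them, and mice that lack Vax1 have fissures that fail to close (coloboma). Mice that lack both genes form retina in place of optic nerve, with Pax6 active there.

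In the RefSeq annotation of build GRCm38.p6, Vax1 spans 5918 bases at chr19:59164480-59170397 and Vax2 spans 27075 bases at chr6:83711239-83738313. A long noncoding RNA gene of the opposite strand, Vax2os, lies at chr6:83692804-83712201 and overlaps the first 963 bases of Vax2. Of the 2 genes, Vax1 had an entry in the RefSeq promoter table used here, as had Vax2os. The 250 bases before the Vax1 start (chr19:59170398-59170647, minus strand) and before the inner of 2 listed Vax2os starts (chr6:83710826-83711075, minus strand) are shown, the first because Vax1 had the larger change of the pair and the second because it lies close before the Vax2 start. The other Vax2os window (chr6:83712202-83712451, minus strand), before the start at the end of the annotated gene, lies inside Vax2 and is not shown. Both are written 5′ to 3′, with the homeodomain core ATTA, or TAAT where it is on the other strand, in capitals.
Vax1: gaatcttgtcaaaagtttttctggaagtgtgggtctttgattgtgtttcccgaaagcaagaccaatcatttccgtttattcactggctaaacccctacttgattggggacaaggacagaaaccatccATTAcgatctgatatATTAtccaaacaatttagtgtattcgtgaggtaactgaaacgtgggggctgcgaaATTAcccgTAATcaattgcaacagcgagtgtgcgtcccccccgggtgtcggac
Vax2os: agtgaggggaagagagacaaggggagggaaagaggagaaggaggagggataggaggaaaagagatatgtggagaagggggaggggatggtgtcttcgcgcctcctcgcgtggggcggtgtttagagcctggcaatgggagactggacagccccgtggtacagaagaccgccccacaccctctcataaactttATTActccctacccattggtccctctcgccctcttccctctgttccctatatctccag

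The Vax1 window held 4 such cores, the Vax2os window shown held 1 and the Vax2os window not shown held 0. Of 32851 RefSeq promoter windows of the same length, 54.9% held at least 1 core and 9.62% held at least 4, so 4 cores in 250 bases was a less usual count than 1. The base composition differed as well, with 44.8% G and C in the Vax1 window and 56.8% and 60% in the Vax2os windows, shown and not shown, against a median of 52.4% over all windows. None of these windows held, on either strand, the palindrome TAATTA, which contains the core (found in 4.84% of windows), the nuclear receptor motif AGGTCA (14.0%), the Gli site GACCACCCA (0.225%) or the TATA box TATAAA (12.4%). The Vax2os window shown lies 164 to 413 bases before the Vax2 start. These are letter matches in a window and were not tested as binding sites.

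Vax1 was the more regional gene of the pair. Its intensity was 732.9, 595.4 and 559 on fissure arrays A, B and C, 17.7, 43.6 and 14.9 on nasal arrays A, B and C, and 55.8, 29.5 and 36.8 on temporal arrays A, B and C. Every fissure array lay above every nasal and temporal array, by a wide gap, while the nasal and temporal ranges overlapped and the value of nasal array C was under the 40% level of the arrays. The means were 629.1 ± 91.7 in the fissure, 25.4 ± 15.8 in the nasal cup and 40.7 ± 13.6 in the temporal cup (SD, n = 3 each), so the linear mean of the fissure was 24.8 times that of nasal and 15.5 times that of temporal cup. Nasal array B weighed on the first ratio: without it the nasal mean was 16.3 and the ratio 38.6.

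The second Vax1 probe set showed the same contrast at lower intensities. It read 139.4, 93.9 and 117.2 on the fissure arrays, 2.4, 11.7 and 1.4 on the nasal arrays, and 2.0, 1.1 and 4.3 on the temporal arrays. All 6 nasal and temporal values lay under the 40% level of their arrays, so this probe set passed the filter only through the fissure, and the ratio of its means is not given. Of the 2 probe sets, one therefore placed a low Vax1 signal in nasal and temporal cup and the other gave none above the dim part of the arrays.

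Vax2 was also highest in the fissure, but it was well above the 40% level in all 3 regions. It read 928.5, 524.2 and 778.5 on fissure arrays A, B and C, 284.4, 373.1 and 286.3 on nasal arrays A, B and C, and 430.3, 300.1 and 346.1 on temporal arrays A, B and C. The lowest fissure value, on array B, was above the highest value elsewhere, on temporal array A, and the nasal and temporal values overlapped. Means were 744 ± 204 in the fissure, 315 ± 50.7 in the nasal cup and 359 ± 66.0 in the temporal cup (SD, n = 3 each), and the fissure mean was 2.36 times the nasal and 2.07 times the temporal mean.

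**Figure D1:**
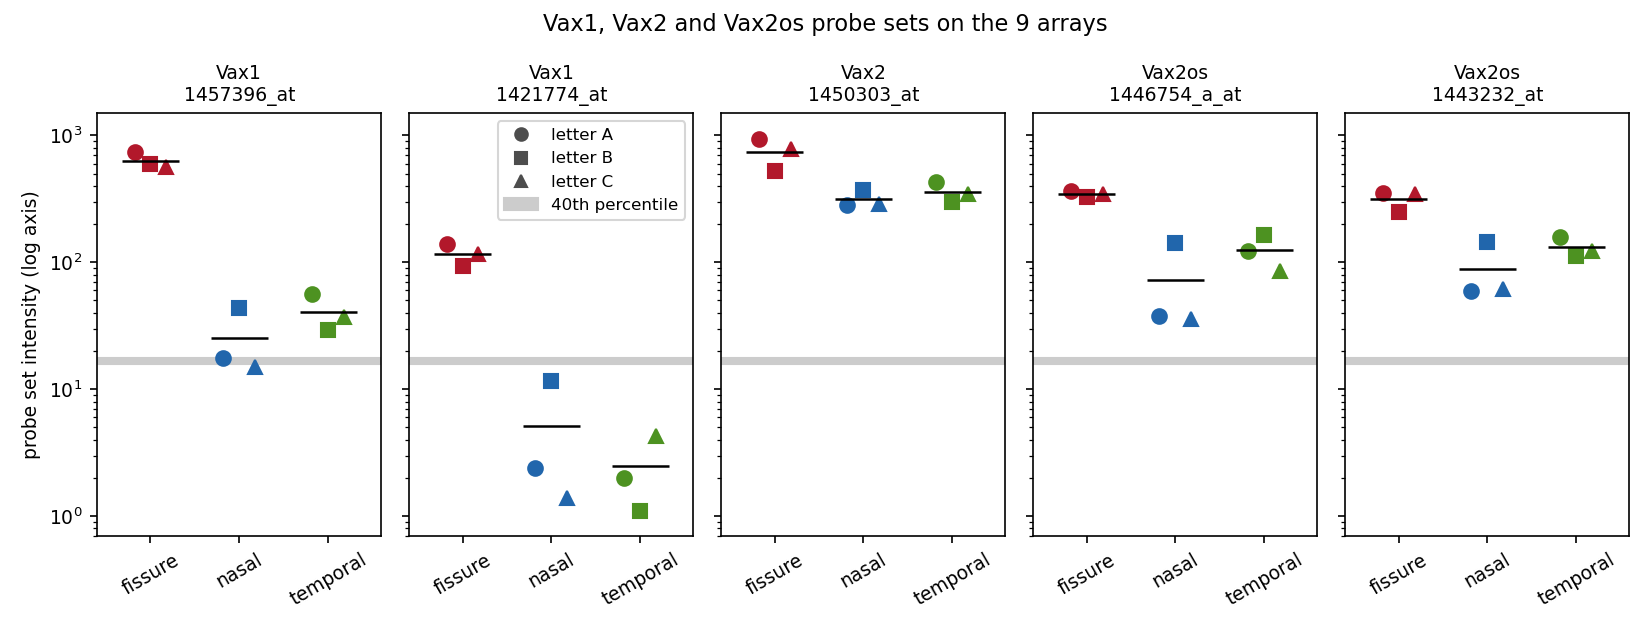
Intensity on a log axis of the Vax1, Vax2 and Vax2os probe sets in the fissure, nasal and temporal cup. Each symbol is 1 array with its letter, black lines are means of 3 arrays, and the grey band is the range over arrays of the 40th percentile of all probe sets. Every fissure array lies above every other array in all 5 panels, and nasal array B is the highest nasal array in each.

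Both genes passed the test in every comparison of the fissure with another region. Changes are differences of log2(intensity + 16), which understate the change of dim genes, from limma fitted to all 9 arrays with p-values adjusted over the 12773 genes by the Benjamini-Hochberg method, and a gene passed at an adjusted p under 0.05. Against the mean of the nasal and temporal cups, Vax1 was higher in the fissure by 3.77 (SE 0.22, 95% interval 3.28 to 4.26, limma adjusted p = 3.35e-06) and Vax2 by 1.08 (SE 0.19, interval 0.66 to 1.51, limma adjusted p = 0.00482). Of all tested genes, 5.72% passed as higher in this comparison, and in 8.41% every fissure array lay above the 6 others, as it did for both Vax genes. Ordered by the size of the rise, Vax1 was number 3 and Vax2 number 248. In bulk samples such as these, fewer cells of a type and less RNA per cell cannot be told apart.

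Fissure against nasal cup gave 4.02 for Vax1 (SE 0.26, limma adjusted p = 1.38e-05) and 1.17 for Vax2 (SE 0.22, limma adjusted p = 0.00920), in a comparison where 4.41% of tested genes were higher. Fissure against temporal cup gave 3.53 for Vax1 (SE 0.26, limma adjusted p = 2.83e-05) and 0.996 for Vax2 (SE 0.22, limma adjusted p = 0.0244), where 3.47% of tested genes were higher. The Vax2 call against temporal cup was the least secure of these. It was lost without fissure array A (0.82, adjusted p = 0.118), fissure array C (0.94, 0.0919), temporal array B (0.88, 0.0970) or temporal array C (0.98, 0.0665), and with the spike-in signal as a covariate (1.13, 0.109). Poly-A spike-ins are control RNAs, and their mean signal was 160.9, 219.1 and 371.7 on fissure arrays A, B and C, 102.4, 132.7 and 200.2 on nasal arrays A, B and C, and 83.8, 115.7 and 180.6 on temporal arrays A, B and C, so the fissure array was the highest of each letter. The ratio of the Gapdh probe sets for the 3′ and 5′ ends, a sign of RNA quality, averaged 9.34 ± 5.13 in the fissure, 6.58 ± 1.98 in nasal cup and 6.19 ± 1.55 in temporal cup (SD, n = 3 each). With the spike-in covariate the changes against the mean of both regions were 4.04 for Vax1 and 1.201 for Vax2, and with the Gapdh ratio 3.82 and 0.98, all 4 past the threshold.

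Nasal and temporal cup were not told apart by either gene. Vax1 differed by -0.49 (interval -1.06 to 0.08) and Vax2 by -0.18 (interval -0.67 to 0.32), nasal minus temporal, and both had a limma adjusted p of 0.9999. Few genes passed this comparison at all, 6 genes or 0.047% of those tested. In the second Vax1 probe set the nasal minus temporal difference had the other sign, at 0.17, but all 6 values were under the 40% level and have no order. For Vax2 and the main Vax1 probe set the order of the means was fissure, temporal, nasal, and only the step below the fissure exceeded the spread between arrays. In the fissure comparisons the second Vax1 probe set gave 2.75 against the mean, 2.67 against nasal and 2.84 against temporal cup, sizes that depend on the pseudocount, since its level outside the fissure was under the 40% level, and that are given as a description.

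**Figure D2:**
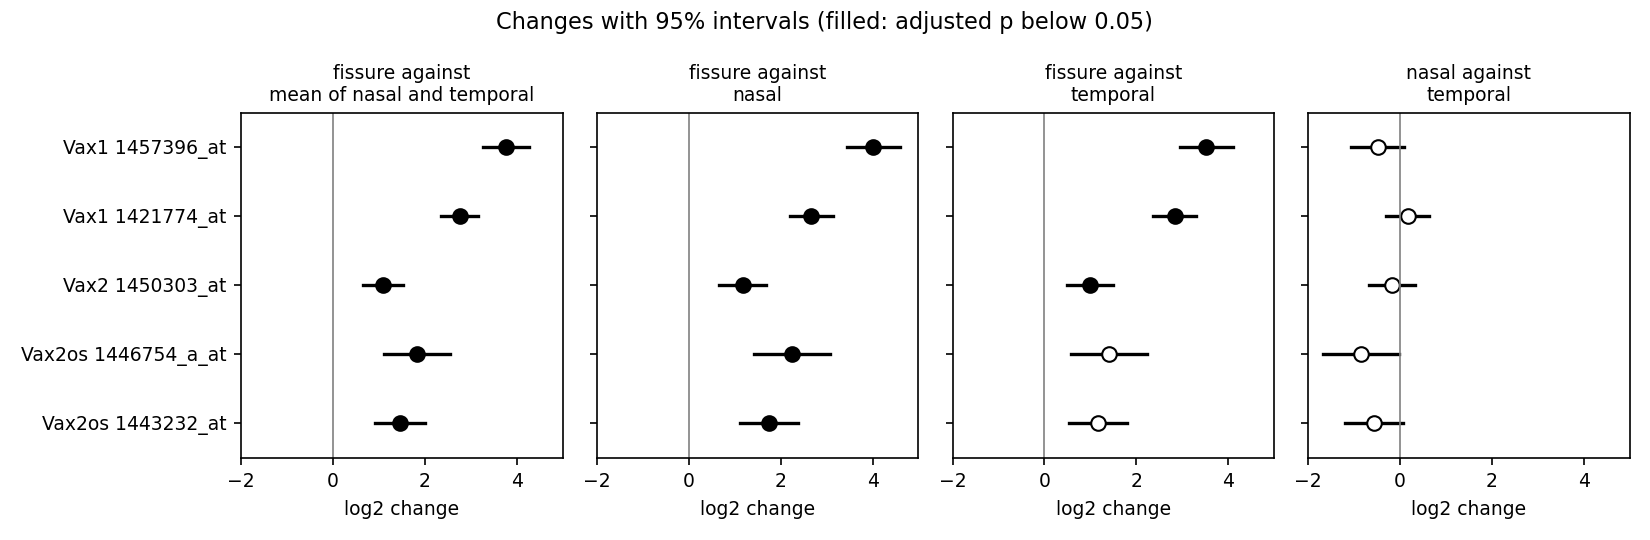
log2 change of each Vax1, Vax2 and Vax2os probe set in the 4 comparisons, with 95% intervals from limma; filled circles passed at an adjusted p under 0.05. The Vax1 changes of 3.77, 4.02 and 3.53 stand clear of the Vax2 changes of 1.08, 1.17 and 0.996, and no probe set passed for nasal against temporal cup. The second Vax1 probe set reached the filter through the fissure alone.

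The rise of Vax1 exceeded that of Vax2. Within each array the log2 value of Vax1 minus that of Vax2 was -0.33, 0.18 and -0.47 on the fissure arrays, -3.16, -2.71 and -3.29 on the nasal arrays, and -2.64, -2.80 and -2.78 on the temporal arrays. The fissure arrays did not overlap the others. These differences have meaning only between regions, because the 2 genes are read by different probes. The mean was -0.21 ± 0.34 in the fissure (SD, n = 3) and -2.89 ± 0.26 in nasal and temporal cup together (SD, n = 6), which differ by 2.69 (exact two-sided permutation test over 84 splits, p = 0.0119, the smallest these splits allow). Against nasal cup alone the Vax1 change exceeded the Vax2 change by 2.84, and against temporal cup alone by 2.53 (exact permutation p = 0.1 each, the smallest that 20 splits allow). Between nasal and temporal cup the difference was -0.31 (exact permutation p = 0.3). These permutation tests took no account of the sample letters.

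The antisense gene Vax2os was higher in the fissure as well. Its main probe set read 367, 326.7 and 345.4 on the fissure arrays, 37.6, 142.1 and 35.9 on the nasal arrays, and 123.5, 165 and 85.8 on the temporal arrays. The fissure values stood close together and apart from the rest, while the nasal and temporal values spread widely and overlapped. Vax2os rose by 1.83 against the mean of the other regions (SE 0.32, limma adjusted p = 0.00420) and by 2.25 against nasal cup (SE 0.37, limma adjusted p = 0.00382). Against temporal cup its value was 1.40 (SE 0.37), with a limma adjusted p of 0.0514, or 0.0144 with the sample letter as a block, a fit in which 12.1% of tested genes passed this comparison. Nasal minus temporal was -0.85 (adjusted p = 0.9999). Its second probe set gave 1.45 against the mean, 1.74 against nasal cup and 1.16 against temporal cup. The limma p-values, adjusted over tested probe sets, were 0.00561, 0.00616 and 0.0538. Against temporal cup this probe set did not pass with the letter block either (limma adjusted p = 0.0593). The strand that these probe sets read was not checked, so signal from the stretch shared with Vax2 cannot be assigned to either gene.

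Some other genes beside the Vax genes on the chromosome were higher in the fissure. Taking 3 neighbours on each side of both genes gave 12 genes. Of these 7 were on the arrays under a single symbol and 4, Vax2os among them, were bright enough to be tested. All 4 passed as higher in the fissure against the mean of the other regions, as did 5.72% of all tested genes. A gene counts as tested also when it passed the filter through the fissure alone, so this count describes these genes and supports nothing further. Shtn1, which encodes shootin 1, a protein of axon outgrowth, ends 88.4 kb from Vax1. It read 197.7, 155.1 and 142.1 on the fissure arrays, 24.8, 27.6 and 46.1 on the nasal arrays, and 36.1, 42.2 and 31.4 on the temporal arrays, a change of 1.84 (SE 0.17, limma adjusted p = 5.88e-05). The fissure arrays lay above the 6 others, and this call held under every alternative tried.

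The nearest Vax1 neighbour is 4930442E04Rik, a long noncoding RNA gene 1383 bases away. It read 65.9, 52.2 and 54.1 on the fissure arrays and 7.1 to 15.8 on the 6 nasal and temporal arrays, a change of 1.48 (SE 0.15, limma adjusted p = 8.83e-05), and passed the filter through the fissure alone. On the Vax2 side, Atp6v1b1, a subunit gene of the vacuolar proton pump 4703 bases away, read 49.4, 34.6 and 62.3 on the fissure arrays and 8.3 to 17.6 on the 6 others, a change of 1.14 (SE 0.16, limma adjusted p = 0.00114). It too reached the filter only through the fissure, since 1 of the 6 others was above the 40% level. The 3 neighbours under the filter were Cd207, Slc18a2 and Clec4f. Of these Cd207, a lectin gene of Langerhans cells, read 30.8, 14.3 and 21.4 on the fissure arrays and 1.3 to 7.1 on the others. The others stayed at or under 31.3 on every array with overlapping regions.

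The Emx genes are homeobox relatives of Vax that lie on the same chromosomes. Emx2, 288 kb from Vax1, read 62.5, 28.8 and 77.5 on the fissure arrays, 17.2, 14.8 and 32.6 on the nasal arrays, and 23.1, 12.7 and 18.2 on the temporal arrays. Fissure array B lay within the nasal range. Emx2 rose by 0.97 against the mean (SE 0.24, limma adjusted p = 0.0259), a call lost under 6 of 21 alternatives, 5 of which each left out 1 array (fissure A, fissure C, nasal A, nasal B or temporal B). It did not pass against nasal cup (0.91, limma adjusted p = 0.0788) or temporal cup (1.03, 0.0513) alone. With the sample letter as a block it passed both (limma adjusted p = 0.0114 and 0.00654). Emx1 was under the filter and Noto was not analysed here.

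Genes known from the ventral optic cup mostly shared the fissure side with the Vax genes. Of 13 ventral genes listed, 11 were tested: in the fissure 9 were higher and 0 lower with limma, also at an unadjusted p under 0.05, and the median change was 1.87, where the median of all tested genes was 0.04. Of all tested genes 8.6% passed in either direction, 2.88% passed as lower and 22.1% had an unadjusted p under 0.05. Of the 9 higher genes, Ntn1 and Ephb1 reached the filter through the fissure alone, which favours a rise there, so their calls are descriptions only. Of all tested genes 576 reached it that way, and 125 of those passed as higher. Large changes were those of Smoc1, a secreted modulator of BMP signalling, at 3.75, and Cyp1b1, a cytochrome P450, at 3.55. Ntn1, the guidance cue netrin 1 needed for fissure closure, gave 3.49, with its 6 nasal and temporal values all under the 40% level, and this size ran from 1.91 to 5.18 over the alternatives. The retinoid enzyme genes Aldh1a3 and Rdh10 rose by 2.45 and 1.87, the BMP receptor gene Bmpr1b by 2.06, Zfp503, a zinc finger gene of fissure closure, by 1.35 and the teneurin gene Tenm3 by 1.30. These changes all had a limma adjusted p of 5.49e-04 or less.

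Ephb1, an Eph receptor gene of ventral retinal axons, rose by 0.77 (limma adjusted p = 0.0193), with 1 of the 6 nasal and temporal arrays above the 40% level. That call was lost under 5 of 21 alternatives, among them leaving out fissure array A or B. Ephb3 gave 0.28 (adjusted p = 0.564) and Zfp703 gave -0.08 (adjusted p = 0.868), and Pax2 and Ephb2 were not analysed here. Between nasal and temporal cup 1 of the 11 passed, Cyp1b1, which averaged 430 ± 4.44 in nasal and 51.4 ± 8.80 in temporal cup (limma adjusted p = 9.56e-06). Vax1 and Vax2 had no such step. With the sample letter as a block, 1 of the 11 passed as higher and 1 as lower in nasal than in temporal cup.

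Genes of the dorsal optic cup, the side that opposes the Vax genes, mostly had changes of the other sign, and 4 of 10 passed. Of 10 tested, 0 were higher and 4 lower with limma (0 and 6 at an unadjusted p under 0.05), with a median of -0.57, and 1 had a positive change. Among all tested genes 5.72% passed as higher, 2.88% passed as lower and 22.1% had an unadjusted p under 0.05. Those that fell were Bambi, a decoy BMP receptor gene (-1.67), the T-box genes Tbx2 (-1.51) and Tbx3 (-1.43), and Msx2, a homeobox target of BMP signals (-0.75). The Msx2 call was lost under 6 of 21 alternatives, among them leaving out fissure array B, fissure array C or nasal array C. Msx2 reached the filter through the temporal cup alone, at 21.5 to 47.5, so its call is a description only. It read 2.6 to 8.7 in the fissure and 7.2 to 13.3 in nasal cup, all under the 40% level. The BMP ligand gene Bmp4 read 84, 27.2 and 40.1 on the fissure arrays, 82.6, 19.9 and 69.7 on the nasal arrays, and 58.2, 42.7 and 100.5 on the temporal arrays. Its regions overlapped, at a change of -0.23 (adjusted p = 0.761).

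The Hedgehog pathway feeds into Vax expression. Of 13 tested genes 0 passed in the fissure with limma in either direction, where 8.6% of all tested genes did (1 higher and 0 lower at an unadjusted p under 0.05), and the median change was 0.16. The pathway's receptor and target gene Ptch1 read 1180.2, 952.5 and 1017.2 on the fissure arrays, 742.4, 795.4 and 619.8 on the nasal arrays, and 838.8, 870.1 and 611.4 on the temporal arrays. Those fissure arrays lay above all others, at a change of 0.49 (adjusted p = 0.0829, or 0.0259 in the letter-blocked fit). The target gene Gli1 gave 0.55 (adjusted p = 0.257, blocked 0.0446), so that the blocked fit had 2 genes higher, in a fit where 16.9% of all tested genes passed in either direction. Shh itself, the ligand, was low everywhere, at 20.8 to 29.1 in the fissure, 28.0 to 30.1 in nasal cup and 25.6 to 29.7 in temporal cup.

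Among 6 tested regulators and partners of the Vax genes, 2 were higher and 0 lower with limma (3 and 0 at an unadjusted p under 0.05, and 3 and 0 in the blocked fit), with a median of 0.41. Of all tested genes 5.72% passed as higher, 22.1% had an unadjusted p under 0.05 and 16.9% passed either way in the blocked fit. Bmp7, a BMP ligand gene needed for ventral eye development, rose by 1.08 (limma adjusted p = 0.00494), a call lost with the spike-in covariate. Nr2f1, an orphan nuclear receptor gene, rose by 0.82 (limma adjusted p = 0.0161), a call lost under 4 of 22 alternatives, among them leaving out fissure array A or C. The gene gained in the blocked fit was the LIM homeobox gene Lhx2, at 0.62 (adjusted p = 0.0821, and 0.00723 blocked). Six3 and Six6, homeobox genes of the whole early eye, gave 0.20 (adjusted p = 0.592) and -0.19 (adjusted p = 0.599).

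Retina and pigment epithelium transcription factors, programmes that the Vax proteins are known to hold back, moved both ways. Of 7 tested, 3 were higher and 1 lower (3 and 2 in the blocked fit), with a median of -0.30. Of all tested genes 5.72% passed as higher and 2.88% as lower, and 16.9% passed either way in the blocked fit. Pax6, the eye selector gene that Vax proteins repress in the optic stalk, read 1442.5, 1776.1 and 1475.8 on the fissure arrays, 2941.3, 3767.4 and 2888.6 on the nasal arrays, and 2820.2, 2797.8 and 2885.6 on the temporal arrays. No fissure array reached any other, as in 5.76% of tested genes, and Pax6 fell by 0.94 on the log2 scale (limma adjusted p = 0.00147). The pigment cell factor genes Tfec and Mitf rose by 2.33 and 0.93, and Otx1 by 1.43. Otx2, its relative, gave -0.49 (adjusted p = 0.138, blocked 0.0394).

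In the retinoic acid pathway, 16 genes were tested, of which 6 were higher and 2 lower, with a median of 0.45. Of all tested genes 5.72% passed as higher and 2.88% as lower. Besides Aldh1a3 and Rdh10 the higher genes were the retinal reductase gene Dhrs3 (1.68), the synthesis gene Aldh1a2 (1.54), the receptor gene Rxrg (1.52) and Cyp26b1 (0.99). Those that fell were Cyp26a1, which like Cyp26b1 encodes a retinoic acid-degrading enzyme (-3.60), and Crabp2, a retinoic acid carrier gene (-0.87). Aldh1a2 and Cyp26b1 reached the filter through the fissure alone, each with 2 of the 6 other arrays above the 40% level. The Aldh1a2 call was lost without fissure array A, without the letter B arrays and with pseudocount 1 (adjusted p = 0.0661, 0.0550 and 0.0631). The Crabp2 call was lost without fissure array A and with the spike-in covariate (adjusted p = 0.0566 and 0.118), and the Cyp26b1 call with that covariate (0.0523). Cyp26a1 averaged 11.8 ± 1.90 in the fissure, 284 ± 112 in nasal cup and 400.3 ± 165 in temporal cup (SD, n = 3 each). Its 3 fissure values were all under the 40% level, so it passed the filter only through the regions where it was high. The size of its fall ran from -4.65 to -2.35 over the alternatives and is given as a description. Of 5 tested Tcf-Lef and beta-catenin genes 0 passed with limma, with or without the letter block (0 higher and 1 lower at an unadjusted p under 0.05), and the Vax2-linked factor gene Tcf7l2 gave -0.20 (adjusted p = 0.682). With 8.6% of all tested genes passing in the fissure, 0 of 5 is no result about these genes.

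**Figure D3:**
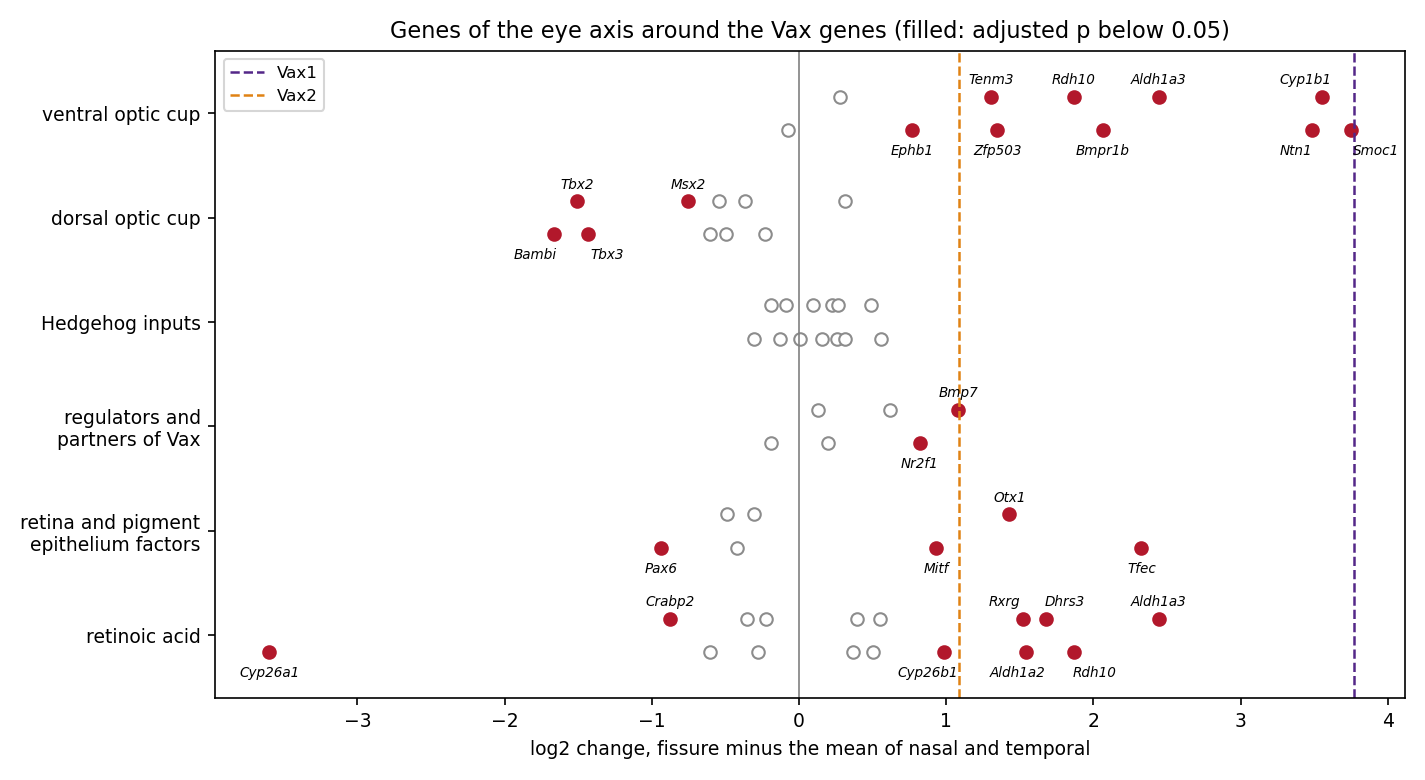
log2 change, fissure minus the mean of the nasal and temporal cups, for the tested genes of 6 lists; filled circles passed at a limma adjusted p under 0.05, and dashed lines mark Vax1 at 3.77 and Vax2 at 1.08. The ventral genes reach up to the Vax1 line, the dorsal genes lie mostly below 0 and the Hedgehog genes scatter around 0.

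Below the fissure, the Vax genes shared a pattern among arrays. Nasal array B was the highest nasal array for Vax1, Vax2 and Vax2os, and for 9 of the 11 tested ventral genes, whereas it was the highest for 34.7% of all tested genes. It was the lowest nasal array for 7 of 10 dorsal genes, against 37.4% of all tested genes. Temporal array A was the highest temporal array for the main Vax1 probe set and Vax2, and for 4 of the 11 ventral genes, as for 24.7% of all tested genes. Vax2os was highest on temporal array B with its main probe set, at 165 against 123.5 on array A. The second Vax1 probe set was highest on temporal array C, under the 40% level. The pattern was noticed after the values were seen and was not tested. Aldh1a3 had the same shape, at 681.5, 1524 and 617.9 on nasal arrays A, B and C and 1363.8, 1045.3 and 1135.4 on temporal arrays A, B and C. Cyp1b1 did not, at 424.7, 433.4 and 430.6 on the nasal arrays. Without nasal array B the fissure against nasal change was 4.31 for Vax1 and 1.30 for Vax2, and Vax1 nasal minus temporal was -0.79 and did not pass.

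The fissure arrays differed in turn for Vax2. Fissure array B was the lowest for Vax2 and for both Vax2os probe sets, as it was for 50.2% of all tested genes. Smoc1 stood out on that array, at 1248.1, 360 and 1063 on fissure arrays A, B and C. Ntn1 also did, at 335, 114 and 359.6. The main Vax1 probe set had its lowest fissure value on array C and the second Vax1 probe set on array B.

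The genes with the pattern most like that of each Vax gene were ranked by Pearson's r of log2(intensity + 16) over the 9 arrays. The arrays fall into fissure and non-fissure values, which sets most of r, so these are descriptions only. For Vax1 the highest were Rdh10 (r = 0.992), Fam171b, Sytl2, Aldh1a3, Afap1l2, Slc40a1, Car8 and Flrt2 (r = 0.986), and all 8 passed as higher in the fissure. Rdh10 averaged 1935 ± 178 in the fissure, 513 ± 89.9 in nasal cup and 527 ± 22.3 in temporal cup. Afap1l2, an actin-associated adaptor gene, averaged 312 ± 21.2 in the fissure, 3.67 ± 3.41 in nasal cup and 5.43 ± 3.77 in temporal cup, and reached the filter through the fissure alone, as did Npas1 and Fam83f of the Vax2 group. The lowest were Mboat1 (r = -0.991), Fgf15, an FGF ligand gene of the retina (r = -0.988), Prim1 and Fam167a. Fgf15 averaged 271 ± 49.2 in the fissure, 1749 ± 214 in nasal cup and 1694 ± 222 in temporal cup (SD, n = 3 each).

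For Vax2 the highest were Smoc1 (r = 0.976), Rps6kb2, Cspg5, Slc40a1, Adamts5, Npas1, Slc27a4 and Fam83f (r = 0.963). Of these Slc27a4 did not pass in the fissure (0.37, adjusted p = 0.102, blocked 0.0486), and the Rps6kb2 call was lost under 16 of 22 alternatives, 8 of them without 1 array each. Adamts5, a secreted metalloprotease gene, averaged 209 ± 45.9 in the fissure, 33.5 ± 4.57 in nasal cup and 51.1 ± 20.5 in temporal cup. The lowest were Gm19835 (r = -0.970), the cell cycle kinase gene Wee1, the matrix proteoglycan gene Vcan, and Nqo1 (r = -0.955). The falls of Wee1, Vcan and, for Vax1, Prim1 lost their calls without fissure array A or C. Only Slc40a1, the gene of the iron exporter ferroportin, was among the 8 highest of both Vax genes.

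Neither Vax gene was among the highest genes listed above for the other. Those genes were picked for their high r, so this does not show that the pair was unlike. Vax1 and Vax2 had r = 0.939. With 12773 genes tested, this put Vax2 at number 152 for Vax1 and Vax1 at number 53 for Vax2. Vax2os had r = 0.898 with Vax1 and 0.850 with Vax2. After the region means were subtracted, Vax1 and Vax2 still had r = 0.702, Vax1 and Vax2os 0.681, and Vax2 and Vax2os 0.360, over 9 arrays that share scaling and letters. In that setting the genes most like Vax1 were Psmd12 (r = 0.952), Lgi2, 4930577N17Rik and Aldh1a3 (r = 0.936), and those most like Vax2 were Slc35f6 (r = 0.966), Gm10336, Esam and Asph. Among the ventral genes Rdh10 had 0.855 with Vax1 and 0.816 with Vax2, while Smoc1 had 0.414 with Vax1 and 0.917 with Vax2. Others went the other way. Ephb1 had -0.564 with Vax1 and -0.833 with Vax2, Zfp703 had -0.495 and -0.332, and Cyp1b1 had 0.314 and -0.130.

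**Figure D4:**
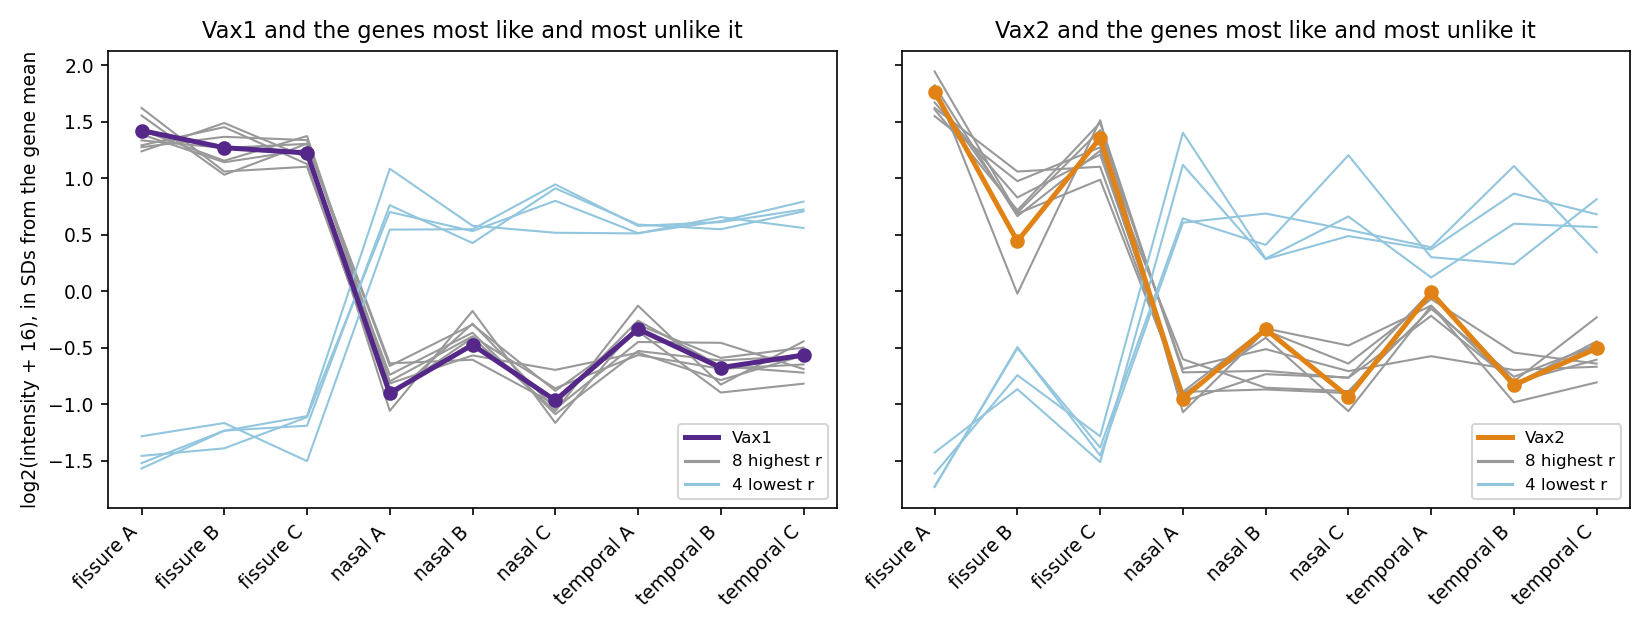
Vax1 (left) and Vax2 (right) over the 9 arrays, as log2(intensity + 16) in SDs from each gene's mean, with the 8 genes of highest r in grey and the 4 of lowest r in blue. Vax1 keeps a near level fissure plateau, Vax2 dips on fissure array B, and both peak on nasal array B and temporal array A within their regions.

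Markers of other cell types also differed between the regions. Of all tested genes 5.72% passed as higher in the fissure, 2.88% as lower and 8.6% either way. With the letter block 16.9% passed either way, and 22.1% had an unadjusted p under 0.05. All 14 tested macrophage and leukocyte markers, of 15 listed, were higher in the fissure (median change 2.18), 5 of which reached the filter through the fissure alone, and their summed intensity was 3052 to 3774 in the fissure, 573 to 836 in nasal cup and 448 to 711 in temporal cup. Of 8 tested lens markers 4 were higher and 1 lower (5 and 1 with the letter block), with sums of 2434 to 3482 in the fissure, 704 to 733 in nasal cup and 639 to 1236 in temporal cup. Crybb1, 1 of the 4 higher lens markers, reached the filter through the fissure alone. Of 13 periocular mesenchyme markers 4 were higher and 2 lower (6 and 2 with the letter block), with sums of 959 to 1853 in the fissure, 781 to 1130 in nasal cup and 637 to 1278 in temporal cup. Of these 4 higher markers, 1 reached the filter through the fissure alone. Neural retina markers had 0 higher and 3 lower of 8 (1 and 3 with the letter block), with sums of 5880 to 6550 in the fissure, 9083 to 10017 in nasal cup and 9019 to 9922 in temporal cup. Pigment epithelium markers had 0 higher and 4 lower of 7 (0 and 5 with the letter block). None of these markers was listed at 0 on all 3 arrays of a region, and the part of these cell types in the Vax results was not tested. Endothelium had 0 higher and 0 lower of 7 (1 and 0 at an unadjusted p under 0.05), erythroid cells 0 and 0 of 5 (3 and 0 unadjusted, and 3 and 0 with the letter block), and surface ectoderm 1 and 3 of 7. The 1 higher surface ectoderm marker reached the filter through the fissure alone. With the shares over all tested genes given above, 0 of 7 and 0 of 5 adjusted calls are no result about endothelium or erythroid cells.

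Optic stalk and ventral forebrain markers come from tissue that adjoins the fissure and uses Vax1. Of 10 listed, 7 were on the arrays and 4 were bright enough to be tested, and 0 passed with limma in any comparison, also at an unadjusted p under 0.05. With 8.6% of all tested genes passing in the fissure, 0 of 4 is no result about these markers. Their sums were 360 to 473 in the fissure, 304 to 488 in nasal cup and 357 to 448 in temporal cup. Most of each sum came from Six3, a gene of the whole early eye, so the sums do not measure stalk tissue. Six3 read 300.5 to 365.3 in the fissure, 246.5 to 389 in nasal cup and 230.1 to 376.7 in temporal cup. The forebrain homeobox genes Nkx2-1 and Nkx2-2 were under the 40% level on all arrays, where values have no order: Nkx2-1 read 0.8 to 7.0 in the fissure and 1.2 to 10.1 elsewhere, and Nkx2-2 read 5.2 to 9.7 in the fissure and 0.4 to 3.3 elsewhere. Isl1, a LIM homeobox gene, read 15.1, 30.7 and 69.8 on the fissure arrays, 10.2 to 21.8 in nasal cup and 25.1 to 42.4 in temporal cup. In all, 4 of the 7 were at or under that level on all 3 fissure arrays. The other 3 of this list were not analysed here.

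**Figure D5:**
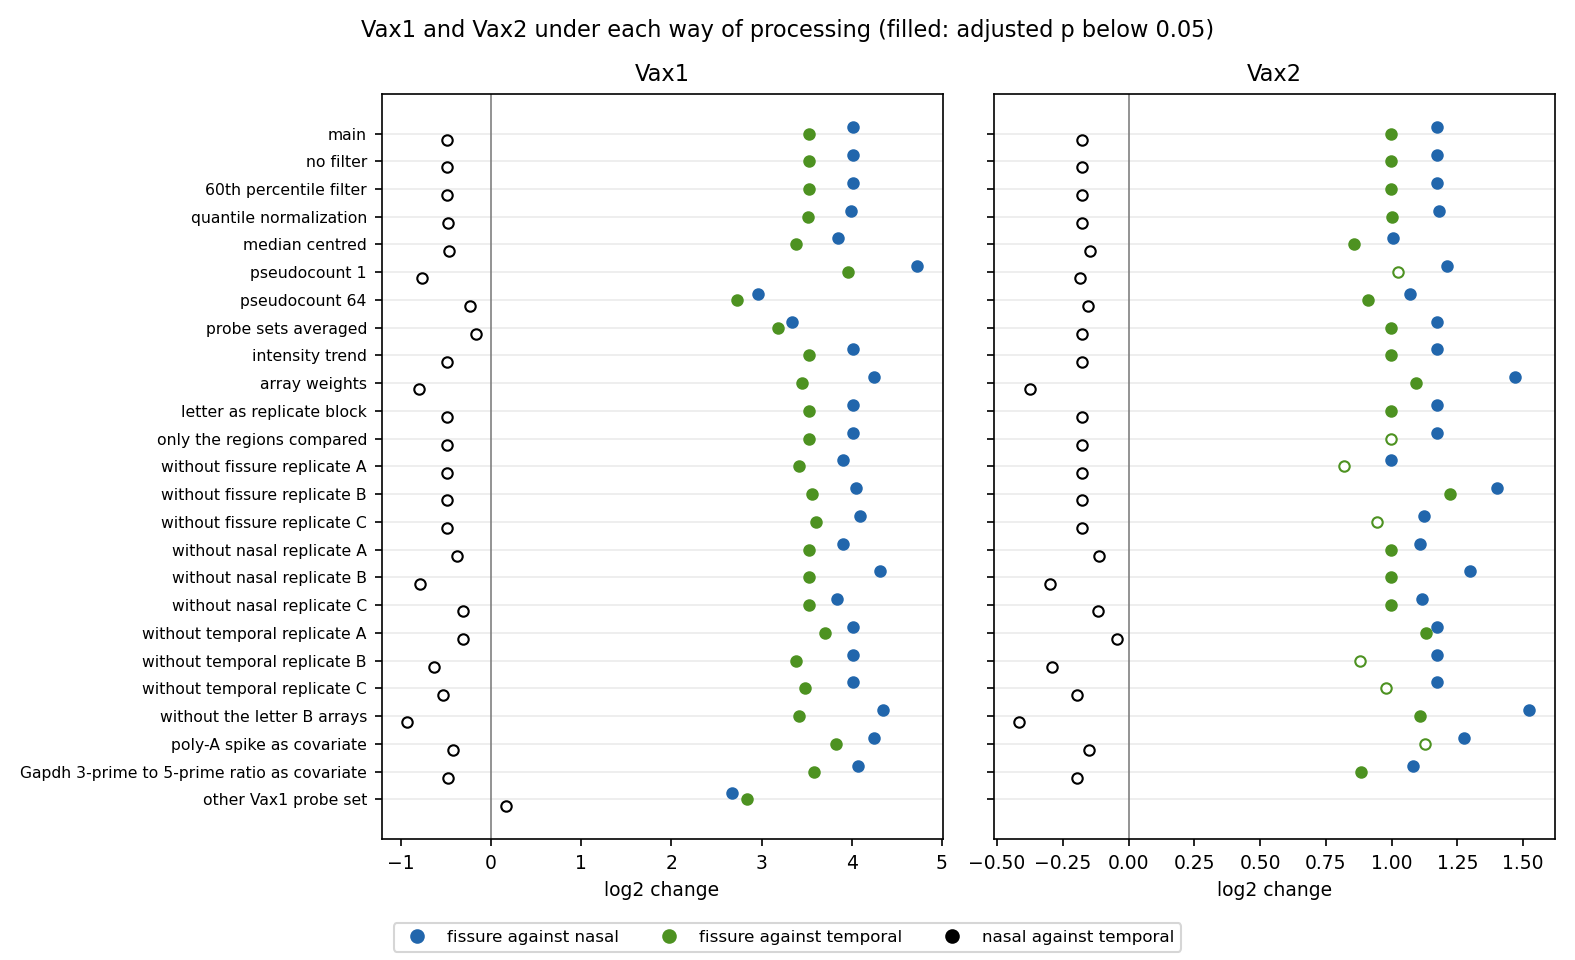
log2 change of Vax1 (left) and Vax2 (right) in 3 comparisons under each way of processing; filled circles passed at an adjusted p under 0.05. Vax1 passed against nasal and temporal cup throughout, from 2.67 to 4.72 against nasal cup, while Vax2 against temporal cup ran from 0.82 to 1.22 and lost its call under 7 of 23 alternatives.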

How the data were processed

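The authors deposited linear intensities of 45101 probe sets for each of 9 Affymetrix arrays, 3 per region. Their probe summary and scaling steps are not given in the sources used here, and no detection calls were used. No further scaling was applied. Probe sets were named through the platform annotation, with gene IDs checked against RefSeq for GRCm38.p6: 34945 had 1 symbol, 932 several, 9160 none and 64 were controls.

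Of 18193 genes, 12773 above the 40th percentile on 3 or more arrays were tested on log2(intensity + 16) with limma 3.58.1 in R 4.3.3 (lmFit, eBayes), with 1 mean per region over all 9 arrays. The fit was tested on simulated data. The series calls the arrays of a region biological replicates. It does not say whether letters mark shared embryos, so p-values cover only the spread among these 9 samples. Deviations from region means correlated at 0.166 to 0.486 in the 9 same-letter pairs of arrays and at -0.438 to 0.218 in the 18 others. All same-letter pairs lay over 0.1, so on the data's evidence, not the labels', letters may pair samples. For fissure array A this was unclear: it had 0.166 with nasal A but 0.184 with nasal C, and 0.229 with temporal A but 0.218 with temporal C. The main limma fit and the permutation tests did not use the letters, so their p-values treat the arrays as unpaired. A second fit, blocked on the letter, is quoted where it changes a call. The number of arrays limits the precision.

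The Vax genes, the gene lists and the markers were chosen with earlier results of these data known. Named by rule were list members that passed (up to 6 by p), list members of the 3 smallest p, the 8 genes of highest and 4 of lowest r to each Vax gene, 4 after removing region means, and 3 chromosomal neighbours a side. Other list members named (Bmp4, Ephb3, Zfp703, Shh, Gli1, Lhx2, Otx2, Tcf7l2, Nkx2-1, Nkx2-2 and those stated as not passing) were picked for their known roles. The alternatives were filters, scaling, pseudocounts of 1 and 64, probe set averaging, variance models, the letter block, covariates and leaving out arrays. Groups of 3 arrays are too small for a test of outlying samples.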

Additional observations from a re-analysis of the deposited data

How the results depend on the processing

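Vax1 kept its direction and its call against the mean of both other regions, nasal cup and temporal cup under all 23, 24 and 24 alternatives, the other Vax1 probe set among them although it reached the filter through the fissure alone, at 2.75 to 4.34, 2.67 to 4.72 and 2.73 to 3.96. Vax2 kept both against the mean and against nasal cup under all 22 and 23, at 0.91 to 1.32 and 0.997 to 1.52, although without fissure array A the adjusted p against nasal cup was 0.0496. Against temporal cup Vax2 fell short with pseudocount 1 (1.03, adjusted p = 0.0535), with only the regions compared (0.996, 0.0513) and with a covariate for the poly-A spike-in (1.13, 0.109). It also fell short in 4 of the fits without 1 array, which gave 0.82 to 1.22 over all 9. Vax1 nasal minus temporal turned to 0.17 with the other Vax1 probe set. Neither Vax gene passed between nasal and temporal cup in any of these fits. The Vax1 minus Vax2 difference for the fissure ran from 1.85 to 3.22 with the main Vax1 probe set. With the other one, an alternative chosen after seeing the data whose values outside the fissure are under the 40% level, it was 1.67 (exact permutation p = 0.0119), and between nasal and temporal cup it turned to 0.35 (exact p = 0.1). With the letter as a replicate block it was again 2.69 (SE 0.15), and the block changed no Vax1 or Vax2 call. Centring arrays on their median lowered fissure changes by about 0.15, to 3.62 for Vax1 and 0.93 for Vax2, with calls kept. Counts of genes past the threshold, in the order fissure against the mean, against nasal, against temporal and nasal against temporal, were 1098, 814, 685 and 6. They were 2165, 1590, 1541 and 17 with the replicate block, 4099, 2669, 3133 and 10 with array weights, and 443, 414 and 285 in the fissure comparisons with the spike covariate. The last comparison gave 3 with only the regions compared, 3 without the letter B arrays and 10 with the Gapdh covariate. Leaving out single arrays gave 545 to 1721, 420 to 1245, 372 to 1161 and 2 to 8. The causes of these moves were not tested. The restriction to compared regions could not apply to fissure against the mean.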
